A study of Mus musculus and Homo sapiens with 23 samples.

Results

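The Isg15 conjugation system was followed in BV2 cells through the RNA of 6 genes: Isg15, Uba7, Ube2l6, Herc6, Usp18 and Isg20. They were chosen by symbol, as the modifier, its activating, conjugating and ligating enzymes, its protease and a further interferon-stimulated gene, and are 6 of 21597 genes measured. BV2 is an immortalised line of mouse microglia, the macrophages of the brain. The samples were 1 RNA library of BV2 cells given lipopolysaccharide (LPS), a cell wall component of Gram-negative bacteria, for 3 h, and, as its control, 1 library of unstimulated BV2 cells. The labels name no gene knockdown for these libraries and state no dose of LPS. The other 21 samples of the series, chromatin immunoprecipitation and input libraries, were not analysed here.

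Isg15 is a small protein built of a pair of ubiquitin-like folds, which cells attach to lysines of other proteins. The chain of enzymes mirrors that of ubiquitin: Uba7 (E1) activates Isg15, Ube2l6 (E2) carries it, and Herc6 is its main ligase (E3) in mouse. Usp18 cuts Isg15 off again and, apart from that activity, binds the interferon receptor chain Ifnar2 and restrains its signalling. Isg20 is an RNA exonuclease that takes no part in conjugation. In macrophages, LPS leads through Tlr4 and Irf3 to interferon beta, which acts back on the cells through Stat2 and Irf9, and genes of the Isg15 system are classical targets of that loop.

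Expression is given as FPKM as deposited, fragments per transcript length scaled to a common library size, so that levels of different genes are per length. The interval after an FPKM is the deposited 95% interval of that library. It covers counting and the assignment of fragments to transcripts, not the spread between cultures. For a gene with several RefSeq rows, the deposited intervals were combined as if independent, also where the text calls an interval deposited. Changes are differences in log2(FPKM + 1), LPS minus unstimulated, a scale that makes changes of weakly expressed genes look smaller than they are. The calls of higher and lower follow a size rule: a difference of 1 or more on that scale, up or down. With 1 library in each group there is no test and no p-value, and each difference is one between these libraries. The fragments implied by the deposited intervals summed to 16910000 in the LPS library and 13790000 in the unstimulated library, rounded. All 9 myeloid and microglial lineage markers with a value were counted, that is, at 1 FPKM or more in either library (Tyrobp was at 3064 FPKM with LPS and 4128 FPKM without), 1 of them called higher, the transcription factor gene Spi1 (707 FPKM with LPS, 217 without). However, of 9 homeostatic microglial markers 5 did not reach 1 FPKM in either library, and Sall1 was listed at 0. Of the counted ones, P2ry12 (0.223 FPKM with LPS, 1.19 without), Tmem119 (0.601 FPKM with LPS, 2.16 without) and Gpr34 (0.154 FPKM with LPS, 1.16 without) had separate intervals, lower with LPS. These 3 did not reach the size rule as reported but were called lower on the TPM scale, as they were at a pseudocount of 0.1, and their part in the results was not tested. Of 25 markers of neurons, astrocytes, oligodendrocytes, endothelium and lymphocytes 23 did not reach 1 FPKM in either library, 14 of them listed at 0 throughout. The other 2 were Kdr (4.79 FPKM with LPS, 5.45 without) and Il7r (0.591 FPKM with LPS, 1.77 without).

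All 6 genes were higher after LPS. The changes ran from 2.47 for Uba7 to 8.32 for Isg15, with a median of 4.46, where all 10035 counted genes had a median of -0.24. By the size rule 6 of 6 were called higher, against 8.55% of all counted genes, and 0 were called lower, against 12.4%. The deposited intervals of the 2 libraries were separate for all 6, as they were, with the LPS library higher, for 25.1% of all counted genes, while a further 48.4% had separate intervals with the LPS library lower. Of all calls by the size rule 40.7% were higher ones, a share that was 24.8% after rescaling to TPM, 54.4% after median scaling and 53.0% after quantile normalisation. Only Herc6 reached the filter of 1 FPKM through the LPS library alone. As these are bulk libraries, more RNA per cell and more cells with the RNA cannot be told apart.

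**Figure D1:**
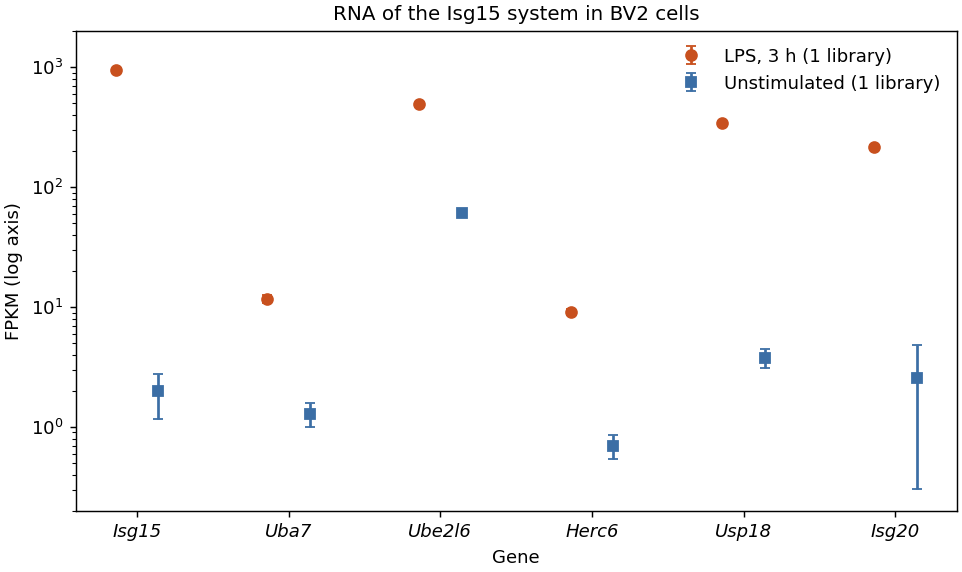
FPKM (log axis) of the 6 genes in the LPS library (circles) and the unstimulated library (squares), with 95% intervals as bars, which are smaller than the symbol where not seen. The intervals are as deposited, except for Isg20, where those of 2 transcripts were combined. Each LPS value lies above the unstimulated value, and Ube2l6 is the gene with the highest unstimulated level, 61.5 FPKM.

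Isg15, the modifier (NM_015783, mm9 chromosome 4, 155573533 to 155574927), was at 952 FPKM (935 to 969) in the LPS library and 1.98 FPKM (1.17 to 2.79) in the unstimulated library. The unstimulated value rests on 24 implied fragments and the LPS value on 12124. The ratio was 481 (322 to 718), and the change of 8.32 was the 8th largest of all 10035 counted genes.  This window of RefSeq (build GRCm38.p6, chr4:156200769-156201068, minus strand, 250 bases before the start to 50 after it) is shown because it holds 3 matches to the interferon-stimulated response element letters (GAAA, any 2 bases, GAAA), which overlap each other and cover bases -78 to -57 from the start. Capitals mark the matches.
Isg15: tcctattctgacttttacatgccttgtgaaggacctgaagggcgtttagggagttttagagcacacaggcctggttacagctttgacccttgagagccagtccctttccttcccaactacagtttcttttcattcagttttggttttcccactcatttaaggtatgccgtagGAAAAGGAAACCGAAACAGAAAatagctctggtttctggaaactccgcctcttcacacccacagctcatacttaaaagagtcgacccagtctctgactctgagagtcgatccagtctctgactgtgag
Both strands were searched, and these letters occur in 3.44% of 32851 such windows. Of the 6 genes 5 were found in that table by symbol, with 7 windows, and Usp18 was not. No other of the 7 windows held them, and no window of Uba7, Ube2l6 or Herc6 held a match to any of the 3 motifs searched. The other motifs were the gamma-activated site, TTCNNNGAA, found in 8.30% of all windows, and the NF-kB motif, found in 8.46%. A match is a description of letters and not of a bound site, and the absence of a match says only that these letters are not in that window.

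The 3 enzymes that attach Isg15 were all higher, from different starting levels. Ube2l6, the E2 (NM_019949, mm9 chromosome 2, 84638985 to 84650160), was at 497 FPKM (489 to 506) in the LPS library and 61.5 FPKM (58.4 to 64.6) in the unstimulated library, a ratio of 8.09 (7.68 to 8.52). It was the only gene of the 6 above 5 FPKM without LPS. Uba7, the E1 (NM_023738, mm9 chromosome 9, 107877898 to 107886387), was at 11.7 FPKM (10.9 to 12.6) with LPS and 1.29 FPKM (1.01 to 1.58) without, a ratio of 9.08 (7.24 to 11.4). Herc6, the E3 (NM_025992, mm9 chromosome 6, 57530986 to 57615130), was at 9.13 FPKM (8.57 to 9.69) with LPS and 0.700 FPKM (0.541 to 0.858) without, a ratio of 13.0 (10.4 to 16.4). The ratio intervals of Uba7 and Ube2l6 overlap, as do those of Uba7 and Herc6, while that of Herc6 lies above that of Ube2l6. The enzymes' changes ranked 186th for Ube2l6, 238th for Herc6 and 260th for Uba7 among the counted genes.

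Usp18, the protease (NM_011909, mm9 chromosome 6, 121195924 to 121220935), was at 340 FPKM (334 to 346) in the LPS library and 3.78 FPKM (3.11 to 4.44) in the unstimulated library. The ratio was 90.0 (75.8 to 107), and the change of 6.16 ranked 25th. The gene that removes Isg15 thus had a larger ratio than each of the 3 enzymes that attach it, and a smaller one than Isg15 itself, and none of these intervals overlap with its own.

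**Figure D2:**
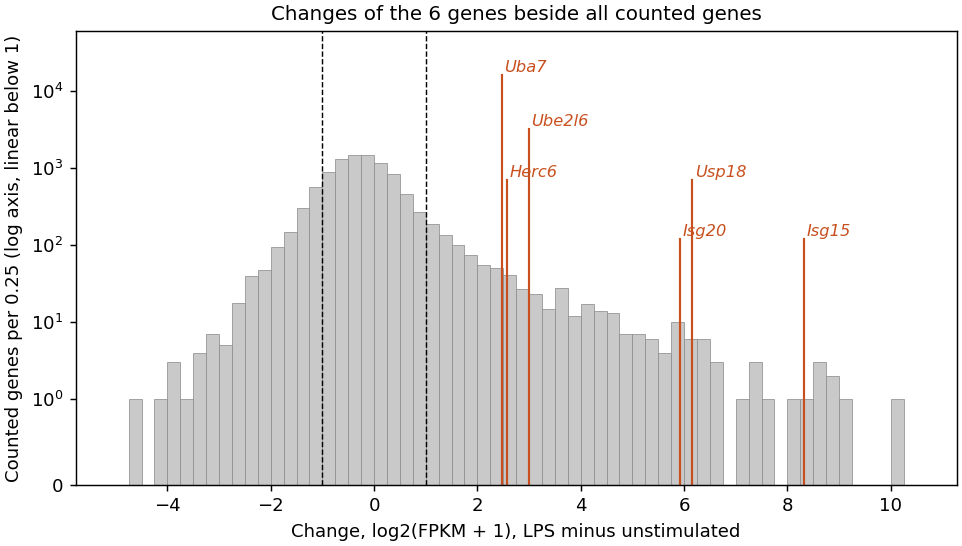
Number of counted genes per bin of change, log2(FPKM + 1), LPS minus unstimulated (grey bars, log axis that is linear below 1), with the 6 genes as vertical lines whose height has no meaning and the size rule as dashed lines. Isg15, Usp18 and Isg20 lie at 5.93 or more, and Ube2l6, Herc6 and Uba7 between 2.47 and 3.00.

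Isg20, the exonuclease (mm9 chromosome 7, 86058651 to 86065282), was at 216 FPKM (208 to 223) in the LPS library and 2.57 FPKM (0.302 to 4.83) in the unstimulated library, summed over 2 RefSeq transcripts. The ratio was 84.1 (35.4 to 199.8), and the change of 5.93 ranked 35th. Its unstimulated interval is the widest of the 6 relative to its value. The combined interval treats the transcripts as independent, although they compete for the same fragments. The transcripts differ in their start by 470 bases. NM_001113527, which starts at 86059121, was at 195 FPKM (188 to 203) with LPS and 0.368 FPKM (0 to 2.21) without. NM_020583, which starts at 86058651, was at 20.2 FPKM (17.6 to 22.8) with LPS and 2.20 FPKM (0.882 to 3.51) without. In the LPS library 90.6% of the gene's FPKM was assigned to NM_001113527, 9.66 times (8.47 to 11.02) that assigned to NM_020583. These values are assignments to overlapping transcripts, and the use of each start was not measured. In the unstimulated library the intervals of the transcripts overlap and that of NM_001113527 reaches 0, so their order there is not resolved at this depth, and no fold is given for NM_001113527.

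The windows of both starts are shown because the RNA with LPS was assigned mainly to the second (RefSeq, build GRCm38.p6, plus strand). They were paired with the transcripts by the length from start to gene end, 6632 and 6162 bases in the mm9 loci and in the RefSeq table. Capitals mark the NF-kB match, at -109 to -100, and the window of NM_001113527 held no match to the 3 motifs.
NM_020583, chr7:78913515-78913814: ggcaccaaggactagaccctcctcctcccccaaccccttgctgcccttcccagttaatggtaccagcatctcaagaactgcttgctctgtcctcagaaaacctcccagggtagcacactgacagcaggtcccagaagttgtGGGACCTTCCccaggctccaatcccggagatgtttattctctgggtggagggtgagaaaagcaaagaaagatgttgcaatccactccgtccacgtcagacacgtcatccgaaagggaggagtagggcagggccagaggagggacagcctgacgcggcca
NM_001113527, chr7:78913985-78914284: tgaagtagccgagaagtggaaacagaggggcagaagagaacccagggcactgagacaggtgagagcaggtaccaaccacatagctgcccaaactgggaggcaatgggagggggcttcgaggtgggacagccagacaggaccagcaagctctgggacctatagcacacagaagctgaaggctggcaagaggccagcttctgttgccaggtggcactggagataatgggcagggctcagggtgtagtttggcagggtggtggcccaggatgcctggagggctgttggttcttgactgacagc
A further RefSeq window of Isg20 lies 341 bases before that of NM_020583 and matched no deposited transcript by length. It held 1 gamma-activated site match, counted once although the symmetric pattern finds it on both strands.

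**Figure D3:**
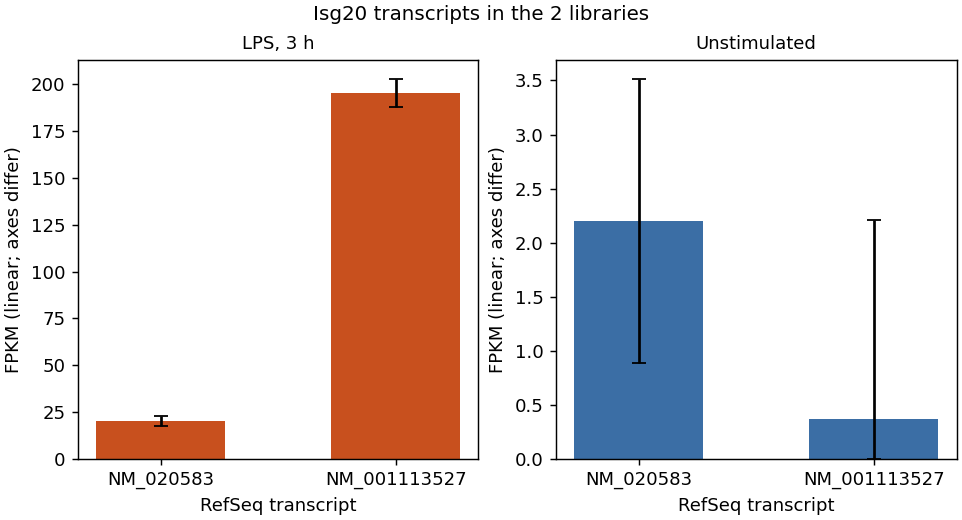
FPKM of the Isg20 transcripts in the LPS library (left) and the unstimulated library (right), on linear axes of different range, with deposited 95% intervals. NM_001113527 is the higher bar with LPS, 195 against 20.2 FPKM, and the intervals of the transcripts overlap without LPS.

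The order of levels changed between the libraries. With LPS it ran Isg15, Ube2l6, Usp18, Isg20, Uba7, Herc6, and each deposited interval was separate from that of the next gene. Without LPS it ran Ube2l6, Usp18, Isg20, Isg15, Uba7, Herc6, where the intervals of Usp18 and Isg20, of Isg20 and Isg15, and of Isg15 and Uba7 overlap, so these neighbours do not differ beyond their intervals. Per length, Isg15 RNA was 1.91 times (1.87 to 1.961) that of Ube2l6 with LPS, whereas Ube2l6 RNA was 31.1 times (20.8 to 46.5) that of Isg15 without LPS. Isg15 RNA was 81.1 times (75.5 to 87.1) that of its E1 gene Uba7 with LPS and 1.53 times (0.972 to 2.41) without. Against its protease gene Usp18 it was 2.80 times (2.73 to 2.87) with LPS and 0.524 times (0.339 to 0.810) without. The 6 genes together made up 0.309% of the summed FPKM in the LPS library and 0.0130% in the unstimulated library. Isg15 was 47.0% of their sum with LPS and 2.76% without, and Ube2l6 24.6% with LPS and 85.6% without.

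The counts of called relatives below stand beside 8.55% higher and 12.4% lower of all counted genes. The 13 counted genes of other ubiquitin-like modifiers had a median change of -0.26, and 0 of them were called lower. Isg15 ranked 2nd of 15 modifier genes by FPKM with LPS, behind Fau (2401 FPKM), a fusion with a ribosomal protein, and 14th without. Fau has near-identical copies in the genome, so its value is uncertain. Of 9 other E1 genes 0 were called higher and 1 lower (median -0.39): Uba3, which activates Nedd8 with Nae1, at 12.4 FPKM with LPS and 28.4 FPKM without. Uba1, the main E1 of ubiquitin, was at 58.9 FPKM with LPS and 31.7 FPKM without, a change of 0.87. After median scaling Uba1 was called higher and Uba3 was not called. Uba7 ranked 7th of 10 E1 genes by FPKM with LPS and 10th without.

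Among the E2 genes, Ube2l6 ranked 1st of 36 by FPKM with LPS and 7th without. Its closest relative in name and function, Ube2l3, a ubiquitin E2, was at 46.9 FPKM (45.1 to 48.8) with LPS and 43.6 FPKM (41.8 to 45.4) without, with overlapping intervals. Of 32 other counted genes whose symbol begins with Ube2, 2 were called higher and 2 lower (median 0.11). The higher ones were Ube2f, a Nedd8 E2 (143 FPKM with LPS, 52.8 without), and Ube2z, an E2 served by Uba6 (46.5 FPKM with LPS, 19.3 without), and the lower ones were Ube2t, the Fanconi anaemia E2 (5.35 FPKM with LPS, 19.9 without), and Ube2v2, a partner of Ube2n (4.80 FPKM with LPS, 13.2 without). That pattern of symbols takes in Ube2cbp, which is no E2. None of the 4 other Herc genes was called as reported (median -0.58), and Herc4 was at 5.12 FPKM with LPS and 4.81 FPKM without, with overlapping intervals. Herc1 (0.831 FPKM with LPS, 2.05 without), Herc2 (0.916 FPKM with LPS, 1.93 without) and Herc3 (1.02 FPKM with LPS, 1.93 without) had separate intervals, lower with LPS. With a pseudocount of 0.1, and also after rescaling to TPM, Herc1 was called lower. Herc6 ranked 1st of 5 with LPS and 5th without.

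Usp18 ranked 1st of 54 measured Usp genes with LPS, with 58.1% of their summed FPKM, and 22nd without, with 1.40%. The next with LPS was Usp12 at 25.4 FPKM. Of 35 other counted Usp genes 2 were called higher and 3 lower (median -0.30), the lower ones numbering 7 after rescaling to TPM. Usp25, a protease that trims ubiquitin chains, was at 18.0 FPKM with LPS and 4.15 without, and Usp12 at 25.4 FPKM with LPS and 7.69 FPKM without. The lower ones were Usp1, which acts on Pcna and Fancd2 (9.42 FPKM with LPS, 25.9 without), Usp37 (0.669 FPKM with LPS, 2.58 without) and Usp48 (1.54 FPKM with LPS, 4.27 without). A further 18 measured Usp genes were below 1 FPKM in both libraries, Usp19 was left out for its estimation status, and the symbol pattern takes in Usp6nl, which is no protease. Of 8 counted exonucleases related to Isg20 by type 0 were called (median 0.01), with 1 lower at a pseudocount of 0.1. Aen, which lies 4.93 kb from Isg20, was at 21.0 FPKM with LPS and 15.5 FPKM without, and Isg20l2 at 4.37 FPKM with LPS and 6.26 FPKM without. In each of these 6 families the gene of the Isg15 system had the largest change of the counted genes on the reported scale.

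**Figure D4:**
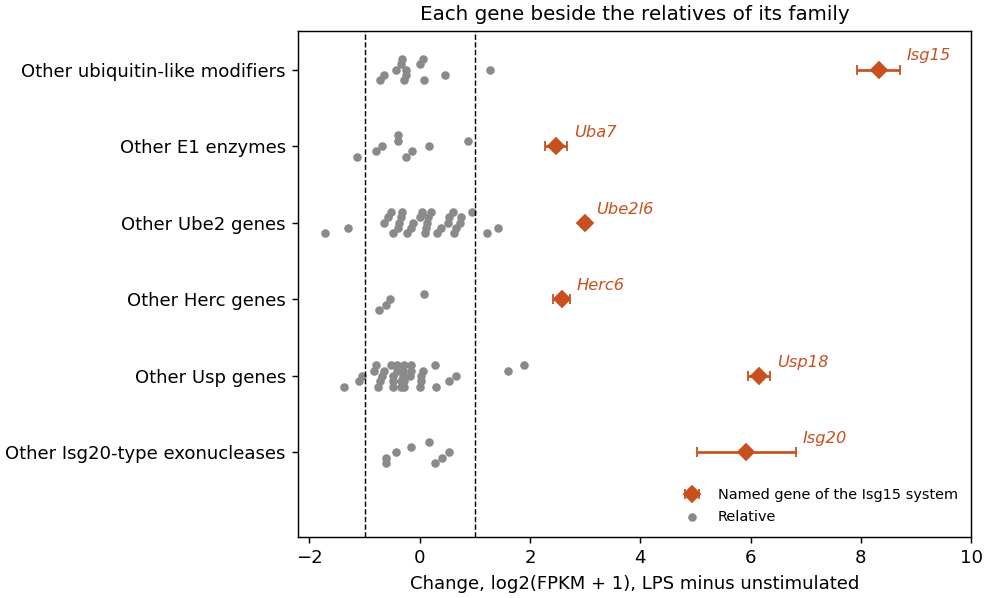
Change, log2(FPKM + 1), LPS minus unstimulated, of each gene of the Isg15 system (diamond, with its 95% interval from both deposited intervals) and of the counted relatives in its family (grey points, spread vertically for sight), with the size rule as dashed lines. Each diamond lies to the right of all grey points of its row, with Usp25 at 1.88 and Ube2f at 1.42 the highest of theirs.

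Genes of the type I interferon loop were mostly higher. Of 13 counted genes of the type I interferon ligand, receptor and relay 9 were called higher and 0 lower, with a median change of 2.60. Of all counted genes 8.55% were called higher and 12.4% lower. Ifnb1, interferon beta, was at 16.2 FPKM (13.9 to 18.4) in the LPS library and listed at 0 in the unstimulated library. Irf7, which amplifies interferon genes, was at 338 FPKM (332 to 344) with LPS and 4.68 FPKM (3.95 to 5.40) without. Stat2 was at 23.0 FPKM (22.0 to 24.0) with LPS and 1.78 FPKM (1.50 to 2.06) without, and its partner Irf9 at 31.5 FPKM (29.8 to 33.3) with LPS and 3.11 FPKM (2.45 to 3.77) without. Ifnar2, the receptor chain bound by Usp18, was at 103 FPKM (99.0 to 108) with LPS and 37.8 FPKM (35.1 to 40.5) without, a ratio of 2.74 (2.52 to 2.97). Its fellow chain Ifnar1 was at 11.1 FPKM with LPS and 5.99 FPKM without, short of the size rule at 0.79. Irf3, which is activated without new synthesis, was at 11.2 FPKM (10.2 to 12.3) with LPS and 17.1 FPKM (15.8 to 18.4) without. Irf1 (252 FPKM with LPS, 6.72 without) and the kinase gene Ikbke (149 FPKM with LPS, 9.37 without) were also among the higher ones.

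The counts for other genes that act on Isg15 or bind it stand beside 8.55% higher and 12.4% lower of all counted genes. Of 9 counted genes for other enzymes reported to act on Isg15, 1 was called higher and 0 lower (median -0.28), with 2 lower after rescaling to TPM. The 1 higher call among 9 is near the share of all counted genes. The higher one was Trim25, reported as an Isg15 ligase in human cells, at 45.5 FPKM (44.3 to 46.7) with LPS and 8.34 FPKM (7.81 to 8.87) without. Arih1, another ligase reported for human ISG15, was at 5.83 FPKM with LPS and 7.77 FPKM without, and the proteases Usp5, Usp14 and Usp21 stayed within the rule. The genes lower after rescaling to TPM were the proteases Usp16 (5.00 FPKM with LPS, 9.34 without) and Usp2 (0.201 FPKM with LPS, 1.13 without), and Usp2 was also called lower with a pseudocount of 0.1. Of 5 counted partners of free Isg15 and of Usp18, 3 were called higher and 1 lower (median 1.06). The higher ones were Stat2, Ifnar2 and Itgal, a chain of the integrin to which secreted ISG15 binds (4.71 FPKM with LPS, 1.74 without). Skp2, part of a ubiquitin ligase reported to mark USP18 for decay in human cells, was lower, at 2.48 FPKM (2.10 to 2.87) with LPS and 12.3 FPKM (11.4 to 13.2) without, a ratio of 0.202 (0.171 to 0.239).

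The counts of targets here stand beside 8.55% higher and 12.4% lower of all counted genes. Among 20 counted genes whose proteins are reported Isg15 targets, mostly from human cells, 8 were called higher and 2 lower (median 0.36). The largest changes were those of Ifit1 (808 FPKM with LPS, 0.729 without), Ifit3 (235 FPKM with LPS, 0.406 without), Mx1 (46.6 FPKM with LPS, 0.183 without) and Ddx58, the sensor RIG-I (21.3 FPKM with LPS, 0.279 without), which are themselves interferon-stimulated. The lower ones were Plcg1, a phospholipase (0.953 FPKM with LPS, 3.65 without), and Pcna, the replication clamp (188 FPKM with LPS, 381 without). Their number is near the share of all counted genes called lower. The other 10 did not reach the rule, among them Ube2n (39.7 FPKM with LPS, 34.5 without) and Hif1a (31.1 FPKM with LPS, 31.6 without, with overlapping intervals). These are RNA levels, and neither Isg15 protein nor its conjugates were measured.

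Within 100 kb of the 6 loci lay 25 other counted genes, of which 7 were called higher and 2 lower, where 8.55% of all counted genes were called higher and 12.4% lower. Those beside Isg15 were 6, of which 4 were higher and 1 lower. Agrn, which encodes the matrix protein agrin, lies 14.3 kb away and was at 9.47 FPKM (8.97 to 9.96) with LPS and 0.569 FPKM (0.444 to 0.694) without. On the other side lie AW011738 at 2.47 kb (2.08 FPKM with LPS, listed at 0 without), Perm1 at 15.1 kb (3.56 FPKM with LPS, 0.851 without) and Plekhn1 at 20.6 kb (34.9 FPKM with LPS, 8.08 without). The lower one was 9430015G10Rik (1.45 FPKM with LPS, 4.86 without). Beside Uba7, 0 of 7 were called, the nearest being Inka1 at 168 bases (9.41 FPKM with LPS, 6.27 without) and Traip at 3.30 kb (4.66 FPKM with LPS, 7.18 without). The remaining calls were Serping1 beside Ube2l6 (1.05 FPKM with LPS, listed at 0 without), Lancl2 beside Herc6 (5.60 FPKM with LPS, 2.19 without), and Slc6a12 (37.9 FPKM with LPS, 16.2 without) and Slc6a13 (2.52 FPKM with LPS, 6.29 without) beside Usp18. The nearest counted genes that did not reach the rule were Timm10 beside Ube2l6 (125 FPKM with LPS, 110 without), Pyurf beside Herc6 (9.40 FPKM with LPS, 6.58 without) and Pex26 beside Usp18 (0.826 FPKM with LPS, 1.47 without). Of the 9 calls, those of Agrn and Plekhn1 held under all 9 alternatives of pseudocount, filter, scaling and summing, and each of the other 7 was lost under at least 1.

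**Figure D5:**
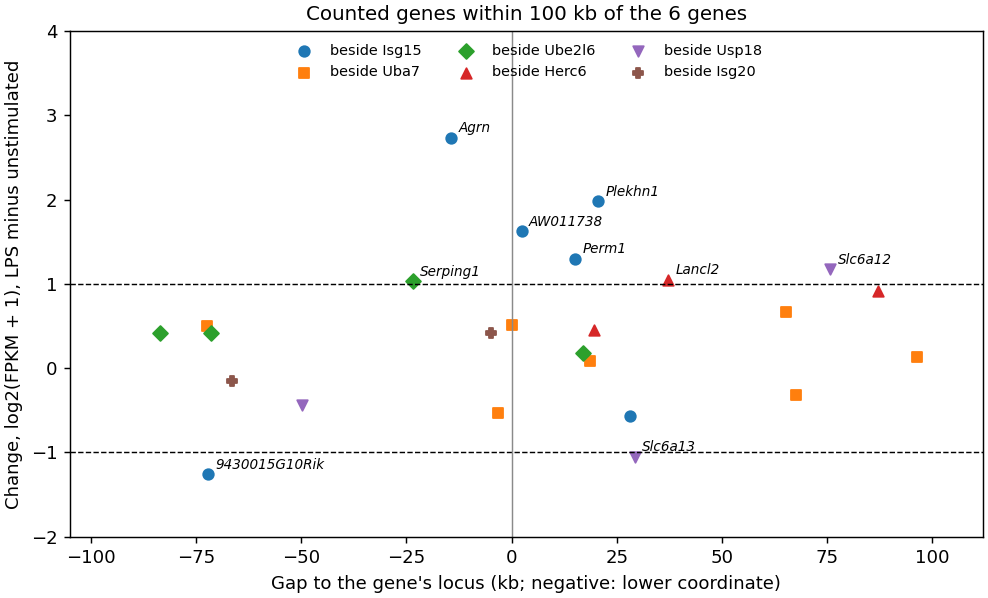
Change, log2(FPKM + 1), LPS minus unstimulated, of the 25 counted genes within 100 kb against the gap to the locus in kb (negative at lower coordinates), marked by the gene they lie beside, with the size rule as dashed lines and names for called genes. The 4 higher genes beside Isg15 lie within 20.6 kb of it, and 0 of the 7 genes beside Uba7 pass the rule.

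The genes most like each member were taken as the 3 with the smallest distance in log2(FPKM + 1) over the 2 libraries, which is a likeness of 2 values only. For Isg15 they were the antiviral enzyme gene Rsad2 (1151 FPKM with LPS, 1.50 without; distance 0.37), Il1b (841 FPKM with LPS, 1.18 without) and Acod1 (1165 FPKM with LPS, 0.936 without). For Usp18 they were Irf7, Irgm1 (352 FPKM with LPS, 5.36 without) and Ifi211 (398 FPKM with LPS, 5.16 without). For Isg20 they were Igtp (169 FPKM with LPS, 2.55 without), Ifit2 (236 FPKM with LPS, 1.58 without) and Rtp4 (177 FPKM with LPS, 1.66 without). Ube2l6 was closest to Psmb10, a subunit of the immunoproteasome (476 FPKM with LPS, 56.3 without; distance 0.14), then Acp5 and Rhoc. Uba7 was closest to Trim56 (12.5 FPKM with LPS, 1.23 without; distance 0.09), then H2-T22, whose family has near-identical copies, and Trim14. Herc6 was closest to Zbtb32 (9.27 FPKM with LPS, 0.637 without; distance 0.06), then Agrn and Rhou.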

How the data were processed

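RNA was measured in 1 BV2 library with LPS for 3 h and 1 unstimulated library. Trizol was used for total RNA, the kit kept strand and reads had 76 bases, per the labels' protocols. The authors deposited FPKM values with lower and upper bounds, made with Cufflinks on build mm9 per the submitters' processing notes. The sources used here name no aligner or version, nor whether strand was used in counting. Both tables list 28246 RefSeq rows without symbols. A RefSeq table of GRCm38.p6, used for names only, matched 27560 rows (97.6%). Coordinates are the deposited loci, written 1-based.

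Rows with a status other than OK in either library (391) and 704 further rows of small RNA genes were left out. Rows of a symbol were summed, with half-widths combined in quadrature, which gave 21597 genes. The 10035 with an FPKM of at least 1 in either library were counted. All 7 rows of the 6 genes had status OK. Fragments behind a value are (2 × FPKM / half-width) squared, and 69.0% (LPS) and 67.5% (unstimulated) of rows with few fragments came within 0.05 of a whole number. Intervals of ratios combine both libraries' half-widths on the log scale. The scripts were tested on simulated data. Python 3.11.15, numpy 2.4.6, pandas 2.3.3 and scipy 1.17.1 were used.

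The 6 genes, the lists and the motifs were chosen with earlier results of these data known. Named genes were all 6, preset genes of the loop, list members past the size rule (the 4 largest where over 5 passed), called or nearest neighbours, and the 3 nearest in pattern. Kdr, Il7r, Tyrobp, Sall1, P2ry12, Tmem119, Gpr34, Usp2, Herc1, Herc2, Herc3, Herc4, Fau, Usp5, Usp14, Usp16, Usp21, Ube2n, Hif1a, Pcna, Plcg1 and Trp53 were added after their values were seen. Protein sequences were not used here, and some genes of the lists are not reported here.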

Additional observations from a re-analysis of the deposited data

How the results depend on the processing

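No paired analysis was possible because each group has 1 library. Under 9 alternatives (pseudocounts of 0.1 and 5, no filter, a filter at 5 FPKM, TPM, median scaling, quantile normalisation, each transcript on its own, rows of every status) all 6 genes stayed called higher. Their median change of 4.46 became 4.93 with a pseudocount of 0.1 and 3.89 with a pseudocount of 5. Ranges were 7.10 to 8.84 for Isg15, 1.41 to 3.09 for Uba7, 2.76 to 3.22 for Ube2l6, 1.31 to 3.53 for Herc6, 5.30 to 6.46 for Usp18 and 4.87 to 7.17 for Isg20, the last value for NM_001113527 alone, where NM_020583 alone gave 2.73. The 7.17 rests on an unstimulated value of NM_001113527 (0.368 FPKM, 0 to 2.21) that is not resolved at this depth. Genes called lower numbered 2061 with a pseudocount of 0.1, 354 with a pseudocount of 5 and 2280 after TPM, against 1248 as reported. With a pseudocount of 5 the higher ones were 62.0% of calls, against 40.7% as reported. TPM moved the median of all genes by -0.24, median scaling by 0.18 and quantile normalisation by 0.11. The causes were not tested. Exact Poisson intervals from implied fragments widened the upper bound of the ratio to 751 for Isg15 and to 259 for Isg20. The combined unstimulated interval of Isg20 implies only 5 fragments.

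Among other named genes, calls of Itgal, Lancl2, Pcna, Plcg1, Uba3, Usp37, Usp48, Ube2v2, Trp53, AW011738, Perm1, Serping1, Slc6a12, Slc6a13 and 9430015G10Rik were lost under 1 to 3 alternatives, and 0 changed sign. The unstimulated value of Isg15 rests on 24 implied fragments, and that of Isg20 has an interval widened by NM_001113527 (0 to 2.21 FPKM).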
